A study of Mus musculus with 6 samples.

Results

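The nuclear genes for respiratory complexes II to V were examined in crypts of the mouse ileum. A gene was taken by its symbol when it matched Sdha to Sdhd, began with Uqcr, with Cox followed by a digit from 4 to 8, or with Atp5, and was not named as a pseudogene. This gave 49 of the 55446 genes in the authors' deposited table, namely 4 for complex II, 8 for complex III, 19 for complex IV and 18 for complex V. They carry 48 symbols, since Atp5o stands for 2 gene identifiers. Of the 49, 48 are annotated as protein-coding, and Cox6c2 is an intronless copy of Cox6c annotated as a processed pseudogene. They lie on 18 chromosomes. Genes with the status for excess data were left out beforehand, so none of the 49 has it. The authors tested 44 of them, and the other 5 had too little signal.

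The series compared 3 libraries of Adar fl/fl mice, which carry floxed alleles of the RNA-editing enzyme gene Adar and no Cre, with 3 libraries of Adar iΔgut mice, which carry the same alleles and Villin-CreERT2, a tamoxifen-activated Cre driven by the villin promoter of intestinal epithelium. All 6 libraries are total RNA from uncultured crypts of tamoxifen-treated mice at day 3. The labels state neither the strain nor the age of the mice. The table holds 1 pooled value per gene for a condition named con and 1 for a condition named TMX, in FPKM, which counts fragments per unit of transcript length and is scaled to the total. Since tamoxifen was given to both genotypes, the name TMX could only be matched to Adar iΔgut by elimination, and con to Adar fl/fl. Adar itself had 19.5 FPKM in con but 52.0 in TMX (q = 0.0575) in the authors' deposited table, so it was higher in the condition matched to the genotype with Cre. That difference is above the threshold of 0.05, and a pooled value for the whole gene does not show whether its floxed part was lost. The match stays unsettled, so each direction is given for the condition labelled TMX. No value per library was used, so no spread between mice stands beside any level. The depth of the libraries is unknown. A member was called when the authors' q-value, a p-value adjusted over the 15762 genes they tested, was under 0.05. The log2 fold changes are those of TMX over con after adding 1 FPKM to each value, which understates the change of low genes.

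The respiratory chain of the inner mitochondrial membrane passes electrons from NADH and succinate to oxygen, and ATP synthase uses the proton gradient that this builds. Complex II, succinate dehydrogenase, also serves the citric acid cycle and feeds electrons to ubiquinone. Complex III passes them to cytochrome c, complex IV passes them to oxygen, and complex V is ATP synthase. All subunits of complex II and most of the others are encoded in the nucleus, while a few core subunits of complexes III, IV and V come from mitochondrial DNA. The factors NRF1, GABP of the ETS family, YY1 and ERR-alpha are known to bind promoters of nuclear respiratory genes.

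Members of all 4 complexes were called lower in TMX. Of the 44 tested members, the authors' deposited table called 22 lower and none higher, which is 50% against 12.3% of all 15762 tested genes called in either direction, 5.7% called lower and 6.6% called higher. At an unadjusted p under 0.05, 32 members were lower and none higher, against 10.7% of all tested genes lower and 12.1% higher. With the authors' p-values adjusted over every gene of the table in place of the tested genes, 11 members were called lower and none higher. The log2 fold change was below 0 for 42 of the 44 tested members, against 46.5% of all tested genes. Its median was -0.999 over the members and 0.05 over all tested genes. Of the 38 tested members that are structural subunits without a known restriction to other tissues, all 38 had a log2 fold change below 0, with con above TMX by 1.39-fold to 2.90-fold in plain FPKM. Summed FPKM over the 49 members was 15944 in con and 7508 in TMX, a ratio of 2.12. In bulk tissue, fewer cells of a type and less RNA per cell cannot be told apart. These sums were 2.55% of the FPKM of all genes without excess data in con and 1.39% in TMX. With FPKM rescaled to an equal sum in both conditions, the median of all tested genes moved to 0.25 and that of the members to -0.79, so the members' median lay at -1.04 relative to that of all tested genes on the log2 scale, and at -1.05 before rescaling.

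**Figure D1:**
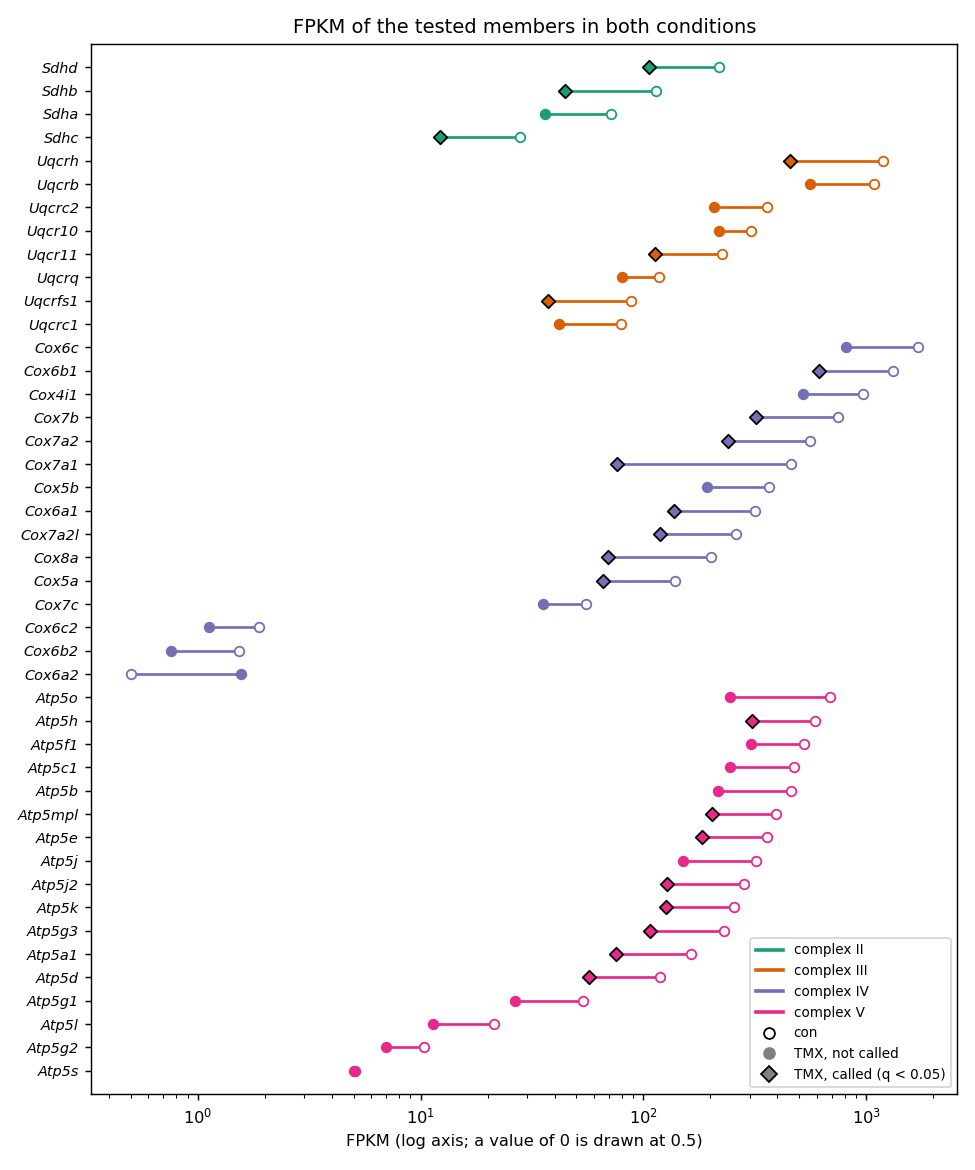
FPKM of the 44 tested members on a log axis, grouped by complex and ordered by their level in con. Open circles are con and filled symbols TMX (diamonds: called by the authors at a q-value under 0.05). Apart from Atp5s and Cox6a2, each member has its TMX symbol to the left of its con symbol, and Cox7a1 has the longest line among the called members.

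The promoters of the members with the strongest called fall in each complex are shown first, with that of Cox7a2 as the counterpart of Cox7a1. Those of Atp5k and Cox6a1 follow, since they were the called members that held both an exact NRF1 motif and an ETS motif. The sequences are from RefSeq (GRCm38.p6), run 5′ to 3′ on the strand of the gene, and span 250 bases before to 50 after its start. Capitals mark matches on either strand to NRF1 (its core palindrome of alternating G and C around AT, also with 1 free base within it), ETS (CCGGAAG), YY1 (AAGATGGCG) or ERR (TCAAGGTCA).
Sdhb, chr4:140961021-140961320, plus strand: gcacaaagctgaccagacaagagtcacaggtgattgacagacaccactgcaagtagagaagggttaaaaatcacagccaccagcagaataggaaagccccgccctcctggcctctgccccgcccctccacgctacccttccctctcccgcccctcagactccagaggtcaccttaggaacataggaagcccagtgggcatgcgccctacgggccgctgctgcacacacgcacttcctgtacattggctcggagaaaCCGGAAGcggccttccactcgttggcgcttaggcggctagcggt
Uqcrh, chr4:116075021-116075320, minus strand: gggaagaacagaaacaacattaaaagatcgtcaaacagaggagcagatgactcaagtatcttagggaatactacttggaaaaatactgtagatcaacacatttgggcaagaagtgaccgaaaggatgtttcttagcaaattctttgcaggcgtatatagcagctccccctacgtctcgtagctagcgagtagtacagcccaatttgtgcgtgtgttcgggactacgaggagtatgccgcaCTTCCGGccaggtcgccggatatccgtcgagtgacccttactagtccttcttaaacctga
Cox7a1, chr7:30183921-30184220, plus strand: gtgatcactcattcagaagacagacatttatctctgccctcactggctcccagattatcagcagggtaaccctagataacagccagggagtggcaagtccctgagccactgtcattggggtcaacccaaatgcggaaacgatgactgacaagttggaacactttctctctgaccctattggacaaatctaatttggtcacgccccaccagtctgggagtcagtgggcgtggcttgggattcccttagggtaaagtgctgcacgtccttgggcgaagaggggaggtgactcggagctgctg
Cox7a2, chr9:79759804-79760103, minus strand: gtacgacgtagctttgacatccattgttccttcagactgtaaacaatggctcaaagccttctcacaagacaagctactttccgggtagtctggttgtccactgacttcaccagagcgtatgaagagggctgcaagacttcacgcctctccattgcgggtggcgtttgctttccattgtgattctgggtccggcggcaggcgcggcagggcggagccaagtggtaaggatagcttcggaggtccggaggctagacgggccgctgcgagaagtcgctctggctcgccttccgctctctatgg
Atp5j2, chr5:145191492-145191791, minus strand: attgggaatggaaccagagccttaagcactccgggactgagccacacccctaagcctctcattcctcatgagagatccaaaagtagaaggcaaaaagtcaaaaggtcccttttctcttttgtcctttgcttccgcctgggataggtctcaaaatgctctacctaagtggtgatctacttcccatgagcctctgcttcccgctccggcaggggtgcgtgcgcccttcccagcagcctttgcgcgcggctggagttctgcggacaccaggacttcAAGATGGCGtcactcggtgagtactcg
Atp5k, chr5:108434350-108434649, minus strand: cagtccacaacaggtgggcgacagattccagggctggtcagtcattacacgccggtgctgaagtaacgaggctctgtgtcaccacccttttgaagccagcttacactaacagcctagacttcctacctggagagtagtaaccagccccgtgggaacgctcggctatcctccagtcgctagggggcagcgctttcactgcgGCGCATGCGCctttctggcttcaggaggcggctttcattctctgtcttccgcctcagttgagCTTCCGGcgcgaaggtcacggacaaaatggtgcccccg
Cox6a1, chr5:115348909-115349208, minus strand: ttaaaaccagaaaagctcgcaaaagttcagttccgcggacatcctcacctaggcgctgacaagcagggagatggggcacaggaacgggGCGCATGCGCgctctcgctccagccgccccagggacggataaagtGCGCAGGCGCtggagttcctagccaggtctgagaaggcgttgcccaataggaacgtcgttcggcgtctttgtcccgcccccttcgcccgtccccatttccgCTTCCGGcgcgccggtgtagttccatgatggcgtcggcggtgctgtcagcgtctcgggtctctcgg
Sdhb and Uqcrh each held 1 ETS match, Atp5j2 held a YY1 match, and these letters were in neither the Cox7a1 nor the Cox7a2 window.

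Complex II had log2 fold changes below 0 at all 4 subunits, and 3 of them were called. Sdhb, the iron-sulfur subunit (ENSMUSG00000009863.14, GRCm38 chromosome 4, 140961203 to 140979193, plus strand), fell from 113.5 FPKM in con to 44.5 FPKM in TMX, for a log2 fold change of -1.33 (q = 0.00112) in the authors' deposited table. Its p-value is the lowest listed there, which 704 tested genes share. Both membrane anchors, which hold the ubiquinone site, were called as well. Sdhd fell from 218.9 to 106.4 FPKM (q = 0.0155) and Sdhc from 27.9 to 12.2 FPKM (q = 0.0360) in the authors' deposited table. The flavoprotein gene Sdha, whose product oxidises succinate, was at 71.8 and 36.2 FPKM (q = 0.0578) in the authors' deposited table, just above the threshold. The log2 fold changes of the 4 subunits lay within -1.33 to -0.97. Their levels differed more than their folds, as Sdhd was the highest and Sdhc the lowest of the 4 in both conditions, on the same per-length scale.

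Complex III had 3 of its 8 tested members called, all lower in TMX. Uqcrh, the hinge protein beside cytochrome c1 (ENSMUSG00000063882.12, chromosome 4, 116066965 to 116075071, minus strand), fell from 1191 to 455 FPKM, for a log2 fold change of -1.39 (q = 0.00200) in the authors' deposited table. It was the most abundant member of complex III in con. Uqcrfs1, the Rieske iron-sulfur protein that takes electrons from ubiquinol, fell from 88.0 to 37.1 FPKM with the same q-value, and the small subunit gene Uqcr11 fell from 225.9 to 112.4 FPKM (q = 0.0131), in the authors' deposited table. The other 5 members were also below 0 without being called, with log2 fold changes of -0.95 to -0.48 and q-values of 0.104 to 0.431 in the authors' deposited table. They include both core proteins, Uqcrc1 at 79.3 and 41.7 FPKM and Uqcrc2 at 358 and 207 FPKM, and the small subunit gene Uqcrb at 1087 and 562 FPKM. The small subunit gene Uqcrq was at 118 and 80.0 FPKM, and Uqcr10, another small subunit, had the log2 fold change nearest 0 in complex III, at 305 and 219 FPKM, in the authors' deposited table. At an unadjusted p under 0.05, 6 of the 8 were lower.

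Complex IV held the strongest fall of any member. Cox7a1, known as the heart and muscle isoform of subunit 7A (ENSMUSG00000074218.3, chromosome 7, 30184144 to 30186078, plus strand), fell from 459.9 to 76.4 FPKM, for a log2 fold change of -2.57 (q = 0.00112) in the authors' deposited table. This is a 6.02-fold fall, against at most 2.90-fold for any other called member. Cox8a, the general isoform of subunit 8, came next and fell from 201.9 to 69.6 FPKM (log2 fold change -1.52, q = 0.00112 in the authors' deposited table). These 2 genes and Sdhb were the 3 members at the lowest p-value of the authors' deposited table. That value is shared by 704 of the 15762 tested genes, so it does not rank these 3 among them.

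The other called members of complex IV had log2 fold changes of -1.23 to -1.07. Cox7b, a small membrane subunit, fell from 751.2 to 318.9 FPKM (q = 0.0228) in the authors' deposited table. Cox6a1, the general isoform of subunit 6A, fell from 317.4 to 137.0 FPKM (q = 0.00355), and Cox7a2, the general isoform of subunit 7A, from 560.0 to 240.2 FPKM (q = 0.00424) in the authors' deposited table. Cox7a2l, which joins complexes III and IV in supercomplexes, was lower as well, from 260.9 to 119.0 FPKM (q = 0.0189) in the authors' deposited table. Cox6b1, which faces the intermembrane space, fell from 1313 to 611 FPKM (q = 0.0317), and Cox5a from 138.8 to 65.5 FPKM (q = 0.0484), in the authors' deposited table. Together with Cox7a1 and Cox8a, 8 of 15 tested members of complex IV were called lower and none higher.

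Among the general subunits of complex IV, 4 were not called, with log2 fold changes from -1.08 for Cox6c to -0.64 for Cox7c. Only that of Cox6c lay within the range of the called members. Cox6c, the most abundant member of all, was at 1711 and 809 FPKM for a log2 fold change of -1.08 (q = 0.173) in the authors' deposited table. Cox4i1, the general isoform of subunit 4, was at 967 and 520 FPKM (q = 0.846), and the zinc-binding subunit gene Cox5b at 368 and 193 FPKM (q = 0.182), in the authors' deposited table. Cox7c had the smallest difference among the general subunits of complex IV, at 55.5 and 35.3 FPKM (q = 0.235) in the authors' deposited table. The locus that the table gives for Cox6c and Cox4i1 reaches beyond the annotated gene, as it does for 13 of the 49 members. Of the 12 tested members with a wider locus 3 were called, and of the 32 whose locus equals the gene 19 were called, with median log2 fold changes of -0.997 and -0.999. Over all tested genes, 2.73% with a wider locus and 7.76% with an equal locus were called lower.

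Complex V had 8 of 17 tested members called, all lower in TMX, across the catalytic head, the rotor and the membrane part. In the F1 head, Atp5a1, the alpha subunit, fell from 162.9 to 75.4 FPKM (q = 0.0126) in the authors' deposited table. The central stalk genes Atp5d and Atp5e fell from 118.8 to 57.1 FPKM (q = 0.0334) and from 357.6 to 182.9 FPKM (q = 0.0301) in the authors' deposited table. The catalytic beta subunit gene Atp5b was at 460 and 216 FPKM (q = 0.104), and the gamma subunit gene Atp5c1 at 476 and 244 FPKM (q = 0.0541), in the authors' deposited table, so neither was called. All 5 genes of the head had log2 fold changes within -1.10 to -0.96.

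In the membrane part, Atp5j2, subunit f (ENSMUSG00000038690.15, chromosome 5, 145183698 to 145192062, minus strand), had the strongest called fall of complex V, from 282.8 to 128.2 FPKM for a log2 fold change of -1.14 (q = 0.00733) in the authors' deposited table. Subunit e, encoded by Atp5k, fell from 254.2 to 126.9 FPKM (q = 0.0176), and the small proteolipid gene Atp5mpl from 395.6 to 204.0 FPKM (q = 0.0159), in the authors' deposited table. Subunit g, encoded by Atp5l, was at 21.5 and 11.4 FPKM (q = 0.473) in the authors' deposited table. In the peripheral stalk, which holds the head still, subunit d was called: Atp5h fell from 586.9 to 306.9 FPKM (q = 0.0367) in the authors' deposited table. Atp5j, coupling factor 6, and Atp5f1, subunit b, were not called, at 321 and 150 FPKM and at 526 and 303 FPKM. Atp5o, the OSCP subunit and the most abundant member of complex V in con, was at 688 and 244 FPKM for a log2 fold change of -1.49, yet q was 0.539 in the authors' deposited table, and its locus is among the wider ones. The second gene identifier named Atp5o was listed at 0.151 FPKM in con and at 0 in TMX and was not tested.

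Compared side by side, the complexes had overlapping folds. The median log2 fold change was -1.08 over 4 tested members of complex II, -0.93 over 8 of complex III, -1.08 over 15 of complex IV and -0.99 over 17 of complex V. Summed FPKM in con was 2.17 times that in TMX for complex II, 2.01 times for complex III, 2.22 times for complex IV and 2.07 times for complex V. The share of tested members called lower was 75% in complex II, 37.5% in complex III, 53.3% in complex IV and 47.1% in complex V, each above the 5.7% of all tested genes. No test of a difference between complexes was made, since the table has no value per library and genes are not replicates. In con the summed FPKM was 432 for complex II, 3453 for complex III, 7108 for complex IV and 4951 for complex V.

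**Figure D2:**
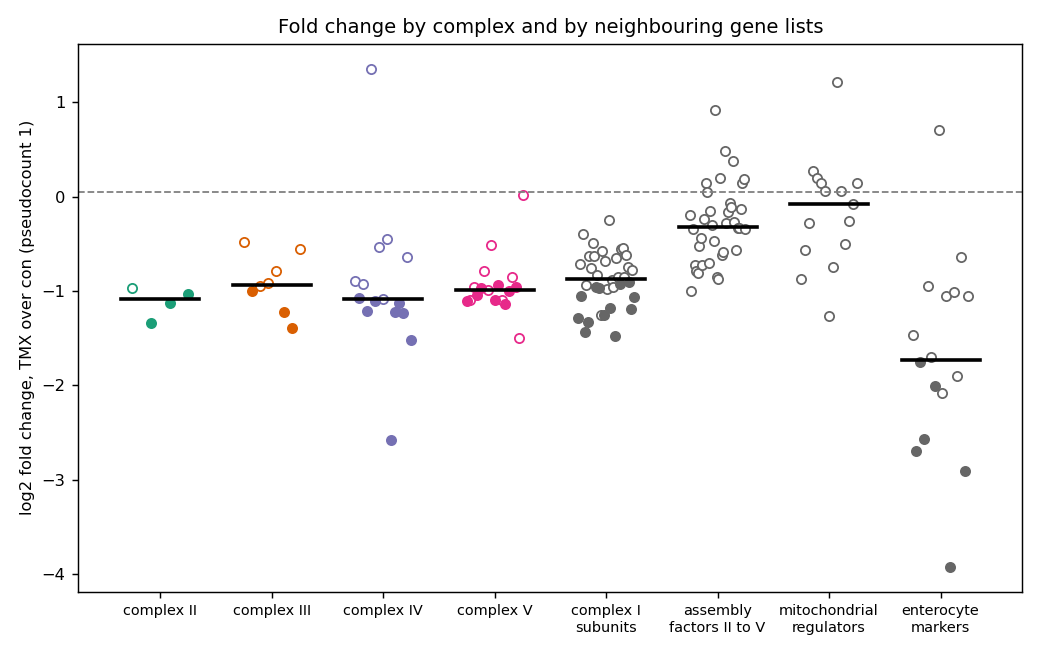
Log2 fold change of TMX over con (pseudocount 1) for tested genes, 1 point per gene, filled where the authors called the gene. Black bars are medians and the dashed line is the median of all tested genes at 0.05. The 4 complexes have medians of -1.08 to -0.93, the complex I subunits -0.87, the assembly factors -0.32, the mitochondrial regulators -0.08 and the enterocyte markers -1.73.

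Genes that encode forms of the same subunit were compared by their share of summed FPKM, which measures RNA and not protein. For subunit 7A, Cox7a1 made up 45.1% of the summed FPKM of Cox7a1 and Cox7a2 in con and 24.1% in TMX, so this isoform lost share. Cox7a1 is best known from heart and skeletal muscle. The 10 muscle markers examined summed to 4.99 FPKM in con and 9.78 in TMX. Of the 7 muscle markers tested, 1 was called higher and none lower: Tnnt2, a troponin of heart muscle, rose from 1.03 to 4.05 FPKM (q = 0.0111) in the authors' deposited table. Actc1 was listed at 0 in both conditions, and Ckm in TMX. For subunit c, which forms the rotating ring, Atp5g3 fell from 230.3 to 107.4 FPKM (q = 0.00676) in the authors' deposited table. Atp5g1 was at 53.6 and 26.4 FPKM (q = 0.0610) and Atp5g2 at 10.4 and 7.01 FPKM (q = 0.536) in the authors' deposited table. Atp5g3 gave 78.3% of the summed FPKM for subunit c in con and 76.3% in TMX, so the mix of these 3 genes stayed close while the sum differed by 2.09-fold.

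Unlike Cox7a1, the other isoforms known from other tissues and the pseudogene Cox6c2 were at 1.89 FPKM or less. Cox6b2, a testis isoform, was at 1.54 and 0.760 FPKM, and the pseudogene Cox6c2 at 1.89 and 1.12 FPKM, in the authors' deposited table. Cox6a2, a heart and muscle isoform, was listed at 0 in con but had 1.56 FPKM in TMX (q = 0.325), and its locus is among the wider ones, in the authors' deposited table. Cox4i2, known from lung, was listed at 0 in con but had 0.0731 FPKM in TMX without a test, and Cox7b2, Cox8b and Cox8c were listed at 0 in both conditions. Atp5s, whose product, coupling factor B, is not a structural subunit, was at 5.04 and 5.10 FPKM for a log2 fold change of 0.01 (q = 0.993) in the authors' deposited table. After subtraction of the median of all tested genes its log2 value was -0.041. Atp5s and Cox6a2 were the 2 tested members above 0 before that subtraction.

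**Figure D3:**
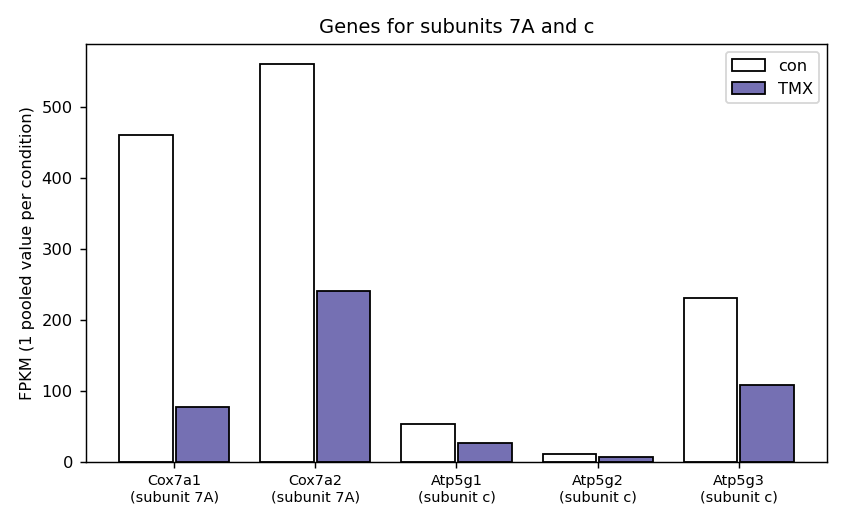
FPKM of the genes for subunit 7A of complex IV and subunit c of complex V, with 1 pooled value per condition and no error bar because no value per library was used. Cox7a1 goes from 460 FPKM in con to 76.4 FPKM in TMX, while Cox7a2 goes from 560 to 240 FPKM.

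The 39 members with a mean of at least 10 FPKM all had a log2 fold change below 0, from -2.57 for Cox7a1 to -0.48 for Uqcr10, with a median of -1.04. Among the 29 tested members with a mean of at least 100 FPKM, 18 were called lower, which is 62.1%, with a median log2 fold change of -1.08. Of the 15 tested members under 100 FPKM, 4 were called lower, which is 26.7%, with a median of -0.85. The 5 tested members under 10 FPKM lay between -0.53 and 1.35 on the log2 scale, none was called, and the pseudocount compresses folds at that level. Abundant genes were called lower more often in general. Of the 657 tested genes with a mean of at least 100 FPKM, members included, 17.8% were called lower and 4.11% higher. Among these 657, 62.6% had a log2 fold change below 0, and the median log2 fold change was -0.23. Without the members, 15.8% of 628 genes were called lower. Many members are short transcripts, with a median of 967 nucleotides for the longest annotated transcript against 2899 over all tested genes. A further group of genes was therefore examined after the values were seen, namely 201 tested protein-coding genes outside the members with a mean of at least 100 FPKM and a longest transcript of at most 1500 nucleotides. Of these, 17.4% were called lower, 64.7% had a log2 fold change below 0, and the median log2 fold change was -0.28. Cytosolic ribosomal protein genes, also short and abundant and also examined after the values were seen, had none of 80 tested genes called and a median of 0.06. At an unadjusted p under 0.05, 1 of those 80 was higher and none lower.

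**Figure D4:**
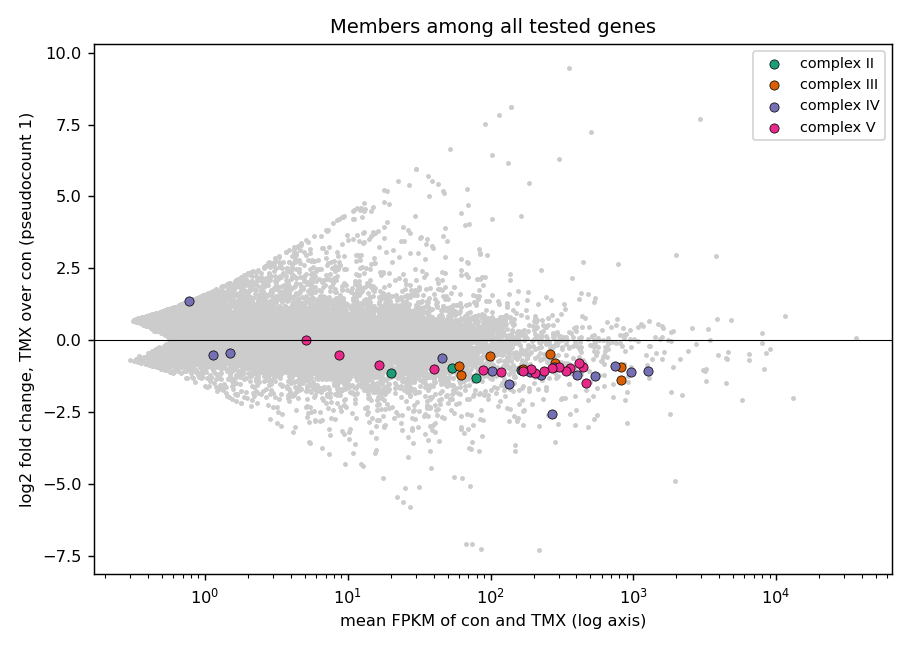
Log2 fold change (pseudocount 1) against the mean FPKM of con and TMX on a log axis, for the 15762 tested genes in grey and the 44 tested members in the colour of their complex. Above 10 FPKM the members form a narrow band near -1, with Cox7a1 below it at -2.57.

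The rest of the pathway was followed with lists of its other genes. Of the 36 complex I subunits, which take electrons from NADH, 13 were called lower and none higher, with a median log2 fold change of -0.87. Ndufc1 had the lowest value, falling from 182 to 65.1 FPKM (q = 0.0159) in the authors' deposited table. Other called subunits included Ndufa13, Ndufa3, Ndufa1, Ndufb3, Ndufv1, Ndufb7, Ndufv3, Ndufa11, Ndufb10, Ndufa9 and Ndufs8, with log2 fold changes from -1.43 for Ndufa13 to -0.91 for Ndufs8. Ndufb6 had the value nearest 0, at 138 and 116 FPKM (q = 0.888), in the authors' deposited table. Among subunits and carriers that the name rule missed, Cyc1, or cytochrome c1, was at 79.1 and 41.5 FPKM and Cycs, or cytochrome c, at 37.3 and 26.6 FPKM, with q-values of 0.125 and 0.629 in the authors' deposited table. Usmg5, a small membrane subunit of ATP synthase, was at 2588 and 1651 FPKM (q = 0.354), and Ndufa4, now placed in complex IV, at 336 and 221 FPKM (q = 0.271), in the authors' deposited table. None of these 4 was called, and 1 of them was lower at an unadjusted p under 0.05.

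The mitochondrial DNA subunits of complexes III to V could be followed only in part. Of 6 genes, 4 had the status for excess data and were left out. Cytochrome b, mt-Cytb, was at 7985 and 4909 FPKM (q = 0.887), and mt-Co2 at 53.8 and 39.7 FPKM (q = 0.483), in the authors' deposited table. Neither was called, also not at an unadjusted p under 0.05, though both log2 fold changes were below 0, at -0.70 and -0.43. The listed levels of these 2 genes lay far apart although both are mitochondrial DNA genes. They therefore do not show how the 6 genes behaved as a set.

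Assembly factors, which build the complexes without staying in them, were not called in either direction. Of 36 tested assembly factors of complexes II to V, none was called, against 5.7% of all tested genes called lower and 6.6% higher. At an unadjusted p under 0.05, 3 were lower and none higher, against 10.7% and 12.1% of all tested genes. Their log2 fold change was below 0 for 28 of the 36, so the lack of calls does not mean that they were unchanged. Their median log2 fold change was -0.32, and that of the members was -0.999. They are far less abundant, with a median of 14.8 FPKM in con against 257.6 FPKM for the tested members. The lowest value was that of Atpaf2, an assembly factor of the F1 head, at 13.9 and 6.43 FPKM (q = 0.185), and the highest that of Cox18, which inserts a mitochondrial DNA subunit of complex IV, at 3.30 and 7.13 FPKM (q = 0.230), in the authors' deposited table. Atpif1, the inhibitor that stops ATP synthase from running backwards, was called, falling from 1853 to 741 FPKM for a log2 fold change of -1.32 (q = 0.00554) in the authors' deposited table.

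Of 15 regulators of mitochondrial gene expression, none was called, against 5.7% of all tested genes called lower and 6.6% higher. At an unadjusted p under 0.05, 1 was higher and none lower. Ppargc1a, the coactivator PGC-1 alpha, had the lowest value at 31.3 and 12.5 FPKM (q = 0.228), and Pprc1, a related coactivator, the highest at 7.16 and 17.98 FPKM (q = 0.121), in the authors' deposited table. Esrra, which encodes ERR-alpha, was at 49.9 and 26.8 FPKM (q = 0.225), while Nrf1 was at 15.4 and 17.1 FPKM (q = 0.909), in the authors' deposited table. Over the 15 genes the median was -0.08 on the log2 scale.

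Taken over all complexes together, motif letters were more frequent in member promoters than in those of other genes, as a description without a test. RefSeq promoters were found for 34 member genes. An exact NRF1 motif was in 11.8% of them, against 2.26% of 10317 tested genes with a promoter and 1.07% of all 27025 genes of the promoter table. With 1 free base, the NRF1 motif was in 29.4% of members and 11.2% of tested genes, and these matches include the exact ones. The ETS motif was in 35.3% of members and 19.9% of tested genes. ERR letters were in 5.88% of members and 0.31% of tested genes, which for the members is 2 genes, Sdhd and Atp5g3. YY1 letters were also in 2 members, Atp5j and Atp5j2, against 3.54% of tested genes. At least 1 of these motifs was in 19 of 34 member promoters, or 55.9%. The share was 30.9% of tested genes and 32.1% of tested genes outside the members with a mean of at least 100 FPKM. By complex, the motifs were in 3 of 3 matched genes of complex II, 3 of 5 of complex III, 3 of 13 of complex IV and 10 of 13 of complex V. The 13 genes of complex IV include Cox7b2 and Cox8b, which were not tested. They also include Cox6b2 and Cox7a1, known from other tissues, and none of these held a motif. The share of complex IV is therefore not like for like with those of tested genes. The motifs were in 12 of 19 matched members called lower and in 7 of 15 not called. Those 15 include Cox7b2 and Cox8b, which were listed at 0 FPKM in both conditions, were not tested and held none of the motifs.

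**Figure D5:**
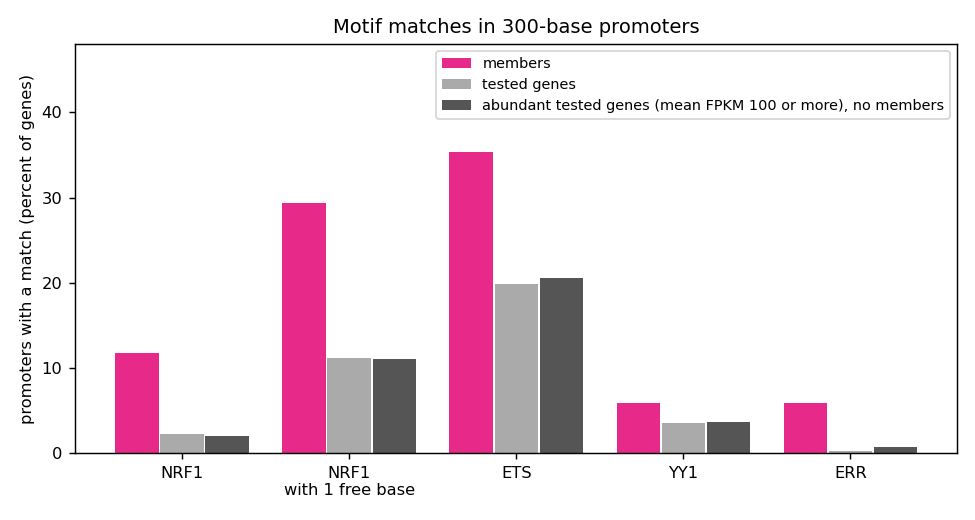
Share of genes whose 300-base promoter holds each motif on either strand, for 34 member genes, 10317 tested genes (members included) and 433 tested genes outside the members with a mean of at least 100 FPKM. The share is higher in members for each of the 5 searches, with 29.4% against 11.2% of tested genes for the NRF1 motif with 1 free base.

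Markers of the cells in the crypt samples moved between the conditions as well. Markers of enterocytes, the differentiated absorptive cells, had 6 of 16 called lower and none higher, with a median log2 fold change of -1.73 and a summed level of 24746 and 7586 FPKM in con and TMX. The called genes were Lct, Slc5a1, Alpi, Apoa1, Enpep and Anpep, while Fabp1 was the 1 marker of the 16 above 0, at 222 and 362 FPKM. Goblet markers had 2 of 7 called lower, Clca1 and Tff3, and summed to 19756 and 9783 FPKM, and Paneth markers had 2 of 8 called lower, Ang4 and Itln1, and summed to 25675 and 16183 FPKM. The other Paneth markers were not called, with log2 fold changes from -0.64 for Defa22 to -0.13 for Pla2g2a. For comparison, 5.7% of all tested genes were called lower and 6.6% higher. Among tested genes with a mean of at least 100 FPKM, 17.8% were called lower and 4.11% higher. Stem cell markers had 2 of 7 called lower, Olfm4 and Slc12a2, a median log2 fold change of -0.64, and sums of 382 and 92.2 FPKM. Olfm4 alone was at 277 and 18.2 FPKM, and without it the sums were 105 and 74.0 FPKM, so their ratio moved from 4.14 to 1.42. Lgr5 at 4.68 and 2.64 FPKM and Smoc2 at 15.5 and 7.24 FPKM were not called. Axin2 and Rnf43 had log2 fold changes of 0.20 and 0.47 without being called. At an unadjusted p under 0.05, 4 of the 7 stem cell markers were lower, Lgr5 and Smoc2 included, and none was higher. None of 8 proliferation markers was called, at 226 and 270 FPKM, with 2 higher and none lower at an unadjusted p under 0.05. Myeloid markers had 9 of 13 called higher and summed to 15.7 and 448 FPKM, with the neutrophil marker Ly6g at 0 and 36.2 FPKM. The other called ones were Adgre1, Itgam, Cd68, Cd14, Fcer1g, Tyrobp, Fcgr3 and Lyz2. Stromal and endothelial markers had 6 of 7 tested called higher, namely Kdr, Pdgfra, Col1a1, Col1a2, Dcn and Col3a1, and summed to 12.6 and 163 FPKM. The endothelial genes among them were low. Kdr was at 0.0444 and 0.621 FPKM, Pecam1 at 0.575 and 1.61 FPKM was not called, and Cdh5 and Vwf were not tested. T and NK markers had 4 of 11 called lower, Gzmb, Gzma, Cd3g and Cd8a, and summed to 357 and 69.9 FPKM. Without Gzma the latter sums were 86.4 and 29.5 FPKM, and their ratio moved from 5.10 to 2.92. These sums without the most abundant gene were chosen after the data were seen. Ly6g in con was the only marker of these 8 lists that was listed at 0. The part of these shifts in the lower values of the respiratory genes was not tested.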

How the data were processed

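The authors deposited 1 table of their own comparison, with 1 FPKM value per gene and condition. The submitters' processing notes name STAR and Cufflinks with the build GRCm38, and give no versions, parameters or strandedness. Per the file headers, the authors' table also holds a log2 fold change with a pseudocount of 1, a test statistic and a signed score, p-values and q-values. The deposited log2 values were reproduced by recalculation, and the q-values equalled a Benjamini-Hochberg adjustment over the 15762 tested genes. Whether all 6 libraries entered the authors' test, and how reads of overlapping genes or near-identical copies were shared out, is stated nowhere in these sources. The labels number the libraries as biological replicates.

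From the table, members were counted by call and direction and summarised by median and summed FPKM; no test of a list was made. The planned fit over libraries was not possible with pooled values. The members and lists were chosen with earlier results of these data known. Full values were given for called members, for the highest, lowest and most abundant of each complex and for isoform families; of other lists the called genes are named, apart from an item not reported here, or, with none called, the highest and lowest. Coordinates and transcript lengths are from GENCODE vM21 (GRCm38), in which all 55446 identifiers were found. Alternatives were the pseudocount, filters on low values, scaling, the genes adjusted over, membership and locus. The adjustment was checked on simulated data. Calculations were made in Python 3.11.15 (numpy 2.4.6, pandas 2.3.3), and plots in matplotlib 3.10.9.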

Additional observations from a re-analysis of the deposited data

How the results depend on the processing

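No paired analysis was possible because the table holds 1 pooled value per condition, and for the same reason no replicate could be left out. With the authors' p-values adjusted over every gene of the table, with no filter on low values, 11 members in place of 22 were called lower, namely 1 in complex II, 4 in complex IV and 3 in complex V, while complex III kept its count of 3. Adjusted over genes with a mean of at least 1 FPKM, the same 22 were called, and over protein-coding genes, an alternative added after the data were seen, 24 were called, including those 22. At an unadjusted p, 6 members of complex III were lower in place of 3. No setting called a member higher. With FPKM rescaled to an equal sum, the median log2 fold change was -0.79 over all members, -0.89 in complex II, -0.72 in complex III, -0.87 in complex IV and -0.78 in complex V. The log2 ratio of summed FPKM was then -0.87 over all members, -0.90 in complex II, -0.80 in complex III, -0.94 in complex IV and -0.83 in complex V. With untested members included, the median of complex IV was -0.93. Pseudocounts of 0.1 or 0, the filter at 1 FPKM, general subunits only, equal loci only and leaving out the most abundant member moved each of these medians or ratios by at most 0.1. Centred on all tested genes, Atp5s turned to -0.041; no other tested member changed sign under another pseudocount, centring or scaling. Unknown depth and pooled values limit all of these statements.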
